A study of Drosophila melanogaster with 12 samples.

Results

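The baseline transcriptome described here is that of the control brains of the series, the 4 samples labelled CAG0 of 12 samples in all. They were taken by genotype label alone. Each sample was a pool of about 20 dissected brains of 3-day-old female Drosophila melanogaster, from which the eyes, the lamina and the outer medulla had been removed, and each was hybridised to 1 Affymetrix array. The other samples came from flies in which elav-GAL4 drives UAS-DsRed-CAG100 (CAG100) or UAS-DsRed-CAA/G105 (CAA/G105), with 4 pools each. In the CAG0 flies elav-GAL4 drives UAS-DsRed-CAG0, so the control is not a wild type: it carries the GAL4 driver, active in neurons, and 1 copy of a DsRed reporter that the CAG100 flies carry in 5 and the CAA/G105 flies in 2 copies. CAG100 and CAA/G105 reporters hold a repeat of 100 CAG units or an interrupted CAA and CAG repeat behind the coding sequence, and the CAG0 reporter holds none. All flies were raised at 25 °C under 12 h of light and 12 h of dark. The series text calls the replicates independent.

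The fly brain signals mainly with acetylcholine as its fast excitatory transmitter and GABA as its main inhibitory one, and with glutamate, histamine, dopamine, serotonin, octopamine, tyramine and many neuropeptides beside them. Glia of several kinds insulate axons, take up transmitter and form the blood-brain barrier. Fat body, blood cells, muscle and endocrine glands lie close to the brain in the head capsule, and brain cells share some of their transcripts.

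Values are the deposited log2 signals of probe sets, given as the mean ± SD over the 4 CAG0 pools unless each pool is listed. A gene was read from its probe set with the highest CAG0 mean. It was called present at log2 4 or more on all 4 arrays, at background under log2 4 on all 4, and mixed otherwise. Signals of different probe sets also depend on the probes, so the order of genes by signal is an order of probe set readings and not of transcript number. In whole brains fewer cells of a type and less RNA per cell cannot be told apart. The number of arrays limits the precision.

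Of 11982 genes with a probe set of their own, 6844 (57.1%) were present, 171 were mixed and 4967 (41.5%) were at background. The median signal was 10.60 for present genes and 2.11 for genes at background, against 7.27 over all genes. Among probe sets that are not array controls 8755 of 18769 (46.6%) were present. The 4 arrays correlated at r = 0.9977 to 0.9986 over all probe sets, which include those at background, and at 0.9893 to 0.9958 over present genes alone. Pools 2 and 4 differed by over 1 log2 unit at 49 present genes, and pools 1 and 4 at 170. Signals at the 3′ end of the GAPDH control transcript exceeded those at the 5′ end by 2.54 to 2.89 log2 units. The middle probe set for 18S ribosomal RNA read 13.86, 14.32, 14.58 and 14.06 on pools 1 to 4. Of 1094 genes with several probe sets, 414 had a present one and a background one, so a call of background describes a probe set and cannot exclude other transcripts of the gene.

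**Figure D1:**
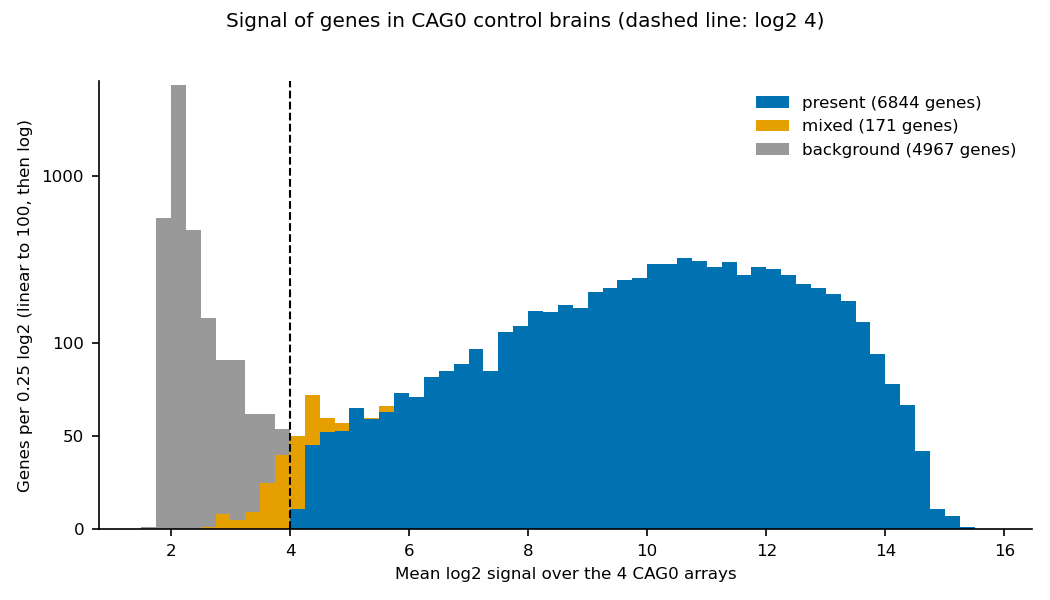
Number of genes (vertical axis, linear up to 100 and logarithmic above) by mean log2 signal over the 4 CAG0 arrays (horizontal axis), stacked by status, with the dashed line at log2 4. The 4967 genes at background form a narrow peak around their median of 2.11, and the 6844 present genes spread broadly around 10.60.

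Markers of neurons and glia matched the labelled tissue. All 21 measured genes of the pan-neuronal list were present, with a median of 13.77, and 18 of 20 glial genes were. The driver's own promoter gene elav, which encodes a neuronal RNA-binding protein, read 13.86, 13.81, 13.67 and 13.75 on pools 1 to 4. The glial transcription factor gene repo read 13.34, 13.23, 13.36 and 13.34. Readings of both lists were level across the pools: the list mean lay between 13.49 and 13.52 for neuronal genes and between 11.49 and 11.59 for glial genes.

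The 25 genes of strongest signal lay between 14.70 and 15.36, near the top of the scale, where the SD over pools is small (median 0.04 for genes at 14 or more, 0.24 for genes from 4 to 6). Protein synthesis and mitochondria account for many of them. RpL15, a protein of the large ribosomal subunit, led at 15.36 ± 0.02, and RpL41, RpL40, RpL39 and RpLP2, of the same subunit, read 14.71 to 15.04. The elongation factor gene eEF1alpha2 read 14.78 ± 0.06. The mitochondrial ADP/ATP carrier gene sesB read 15.16 ± 0.03, the phosphate carrier gene Mpcp2 14.74 ± 0.07 and the ATP synthase subunit gene ATPsynC 14.74 ± 0.03. Iron storage stood beside them with both ferritin subunits, Fer2LCH at 14.89 ± 0.02 and Fer1HCH at 14.78 ± 0.02.

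Genes of neurons made up another part of the 25. The gene nrv3, a beta subunit of the neuronal sodium-potassium pump, read 15.20, 15.26, 15.26 and 15.26 on pools 1 to 4. Complexin (cpx), which controls vesicle fusion, read 14.86 ± 0.04, and IA-2, a protein of dense-core vesicles, 15.04 ± 0.08. The glutamate decarboxylase gene Gad1, which makes GABA, read 14.79 ± 0.05, and Ms, the precursor of myosuppressin, 14.85 ± 0.04. The 14-3-3 protein gene 14-3-3epsilon read 14.77 ± 0.04 and the autophagy gene Atg8a 14.73 ± 0.07. Glutamine synthetase 2 (Gs2), a glial enzyme that recycles glutamate, read 14.83 ± 0.03. The odorant-binding protein gene Obp44a, at 15.15, 15.05, 15.02 and 15.13, also lay in this group although it is named for an olfactory family. The remaining 5 were the long non-coding RNA gene lncRNA:CR42862 (15.07 ± 0.04), CG8369 (15.09 ± 0.05), CG10077 (14.77 ± 0.05), CG10433 (14.74 ± 0.09) and CG42540 (14.70 ± 0.05).

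Genes of fast transmitters were present throughout. All 4 acetylcholine genes were: the vesicular transporter gene VAChT at 14.36, 14.38, 14.35 and 14.37, the synthetic enzyme gene ChAT at 13.85, 13.92, 13.94 and 13.92, the esterase gene Ace at 13.54 ± 0.10 and the choline transporter gene ChT at 13.46 ± 0.05. Their SDs were 0.01 to 0.10, like those of other genes at this level (median 0.08 from 12 to 14 and 0.04 at 14 or more). For GABA, Gad1 read 14.72, 14.78, 14.82 and 14.83, the vesicular transporter gene VGAT 11.99 ± 0.06, the plasma membrane transporter gene Gat 13.13 ± 0.13 and the GABA transaminase gene Gabat 11.58 ± 0.17. VGlut, the vesicular transporter that marks glutamatergic neurons, read 7.59, 7.82, 7.82 and 7.46, with a further probe set at background (mean 2.14).

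Genes of monoamines were present in 9 of 12 cases. The tyrosine hydroxylase gene ple, the first step of dopamine synthesis, read 12.00, 11.95, 12.04 and 12.23. The decarboxylase gene Ddc, shared by dopamine and serotonin, read 13.96 ± 0.09 and the vesicular monoamine transporter gene Vmat 13.87 ± 0.05. The uptake transporters of dopamine and serotonin were both present, DAT at 11.09 ± 0.07 and SerT at 9.32 ± 0.15. Pu, which makes the cofactor of the hydroxylases, read 11.35 ± 0.07, prt, a vesicular transporter of mushroom body neurons, 9.27 ± 0.07, and Hdc, the enzyme of histamine synthesis, 9.01 ± 0.07.

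The octopamine pathway split. Tbh, which turns tyramine into octopamine, read 10.14, 10.19, 10.48 and 10.16. Tdc2, the neuronal enzyme that makes tyramine, read 3.88, 4.03, 3.42 and 3.75 and so was mixed, while Tdc1, the enzyme of other tissues, was at background (2.19 ± 0.01). CarT, a carcinine transporter of the histamine cycle, lay close to the threshold (mean 4.12).

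**Figure D2:**
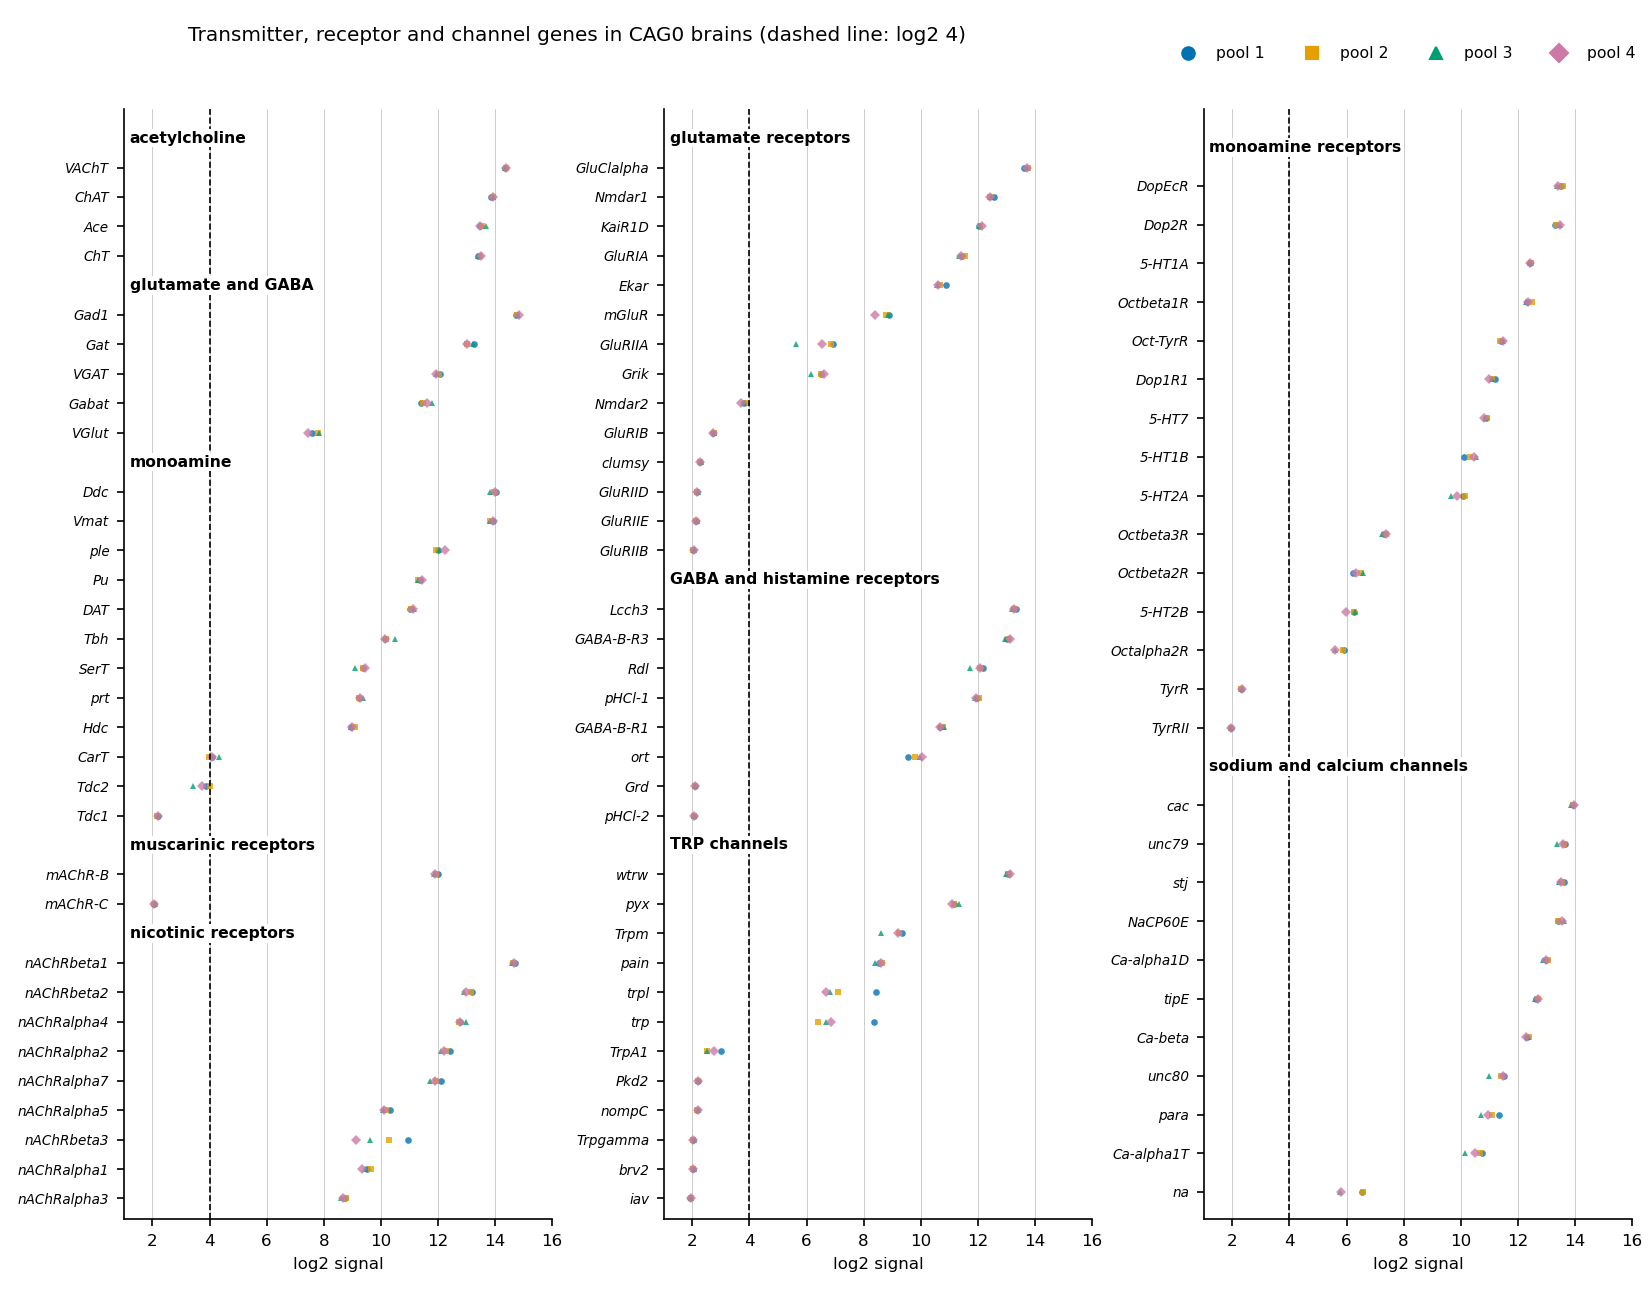
Log2 signal (horizontal axes) of transmitter, receptor and channel genes, with 1 symbol for each of the 4 CAG0 pools, in order of signal within each list, and the dashed line at log2 4. Most genes lie either far right of the line, with the 4 symbols almost on top of each other, or near log2 2, and nAChRbeta3, GluRIIA, trp and trpl are among those whose pools spread.

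Nicotinic acetylcholine receptors, the channels that carry fast excitation, had all 9 measured subunits present, from nAChRbeta1 (14.65 ± 0.04) to nAChRalpha3 (8.71 ± 0.08). nAChRbeta3 varied most, at 10.96, 10.30, 9.62 and 9.12, while the other 8 had SDs of 0.04 to 0.15. Of 3 listed muscarinic receptor genes 2 were measured, with mAChR-B present (11.92 ± 0.06) and mAChR-C at background (2.07 ± 0.01).

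Glutamate receptors had 8 of 14 members present and 6 at background, close to the 57.1% of all genes. The chloride channel gene GluClalpha read 13.71 ± 0.06, the NMDA receptor subunit gene Nmdar1 12.46 ± 0.06 and the kainate-type subunit gene KaiR1D 12.05, 12.07, 12.05 and 12.14. The partner subunit gene Nmdar2 stayed just under the line, at 3.81, 3.92, 3.80 and 3.71. Of the subunits known from the neuromuscular junction GluRIIB, GluRIID and GluRIIE were at background (2.04 to 2.17), whereas GluRIIA read 6.49 ± 0.60. GluRIB (2.74 ± 0.01) and clumsy (2.28 ± 0.01) were at background too.

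Inhibitory receptors had 6 of 8 genes present. The GABA-gated channel gene Rdl, the target of several insecticides, read 12.16, 12.09, 11.71 and 12.07, and the subunit gene Lcch3 13.26 ± 0.05. The metabotropic receptor genes GABA-B-R3 and GABA-B-R1 read 13.04 ± 0.07 and 10.73 ± 0.08. The histamine-gated channel gene ort, known from neurons behind the photoreceptors, read 9.84 ± 0.21 although the lamina had been removed. Grd (2.09 ± 0.01) and pHCl-2 (2.06 ± 0.01) were at background.

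Monoamine receptors had 13 of 15 genes present. DopEcR, which answers to dopamine and ecdysone, read 13.47 ± 0.10, the dopamine receptor genes Dop2R and Dop1R1 13.40 ± 0.09 and 11.09 ± 0.09, and the serotonin receptor gene 5-HT1A 12.44, 12.47, 12.44 and 12.42. Octopamine and tyramine receptors ranged from Octbeta1R (12.37 ± 0.10) and Oct-TyrR (11.44 ± 0.05) to Octalpha2R (5.74 ± 0.17). The tyramine receptor genes TyrR and TyrRII were at background (2.32 ± 0.01 and 1.96 ± 0.01). This list depended on the probe set: with the probe set of lowest mean 7 of the 15 were present, since 5-HT1B, 5-HT2B, Dop2R, Octbeta1R, Octbeta2R and Octbeta3R each had another probe set at background.

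Voltage-gated sodium and calcium channel genes and their partners were present in 11 of 11 cases. The sodium channel gene para, which carries the action potential, read 11.33, 11.10, 10.70 and 10.96. The presynaptic calcium channel gene cac read 13.92 ± 0.05, its auxiliary subunit gene stj 13.53 ± 0.07, and na, the sodium leak channel of clock neurons, 6.18 ± 0.44. Potassium and cation channels followed with 18 of 20, among them Sh at 13.42 ± 0.09, its modulator qvr at 13.47 ± 0.14 and the pacemaker channel gene Ih at 13.30 ± 0.07. The exceptions were eag (1.89) and sand (2.12 ± 0.01), a sleep-related leak channel. TRP channels had 6 of 12 present: wtrw (13.05 ± 0.05), pyx, Trpm, pain, trpl and trp, with TrpA1, nompC, iav, Trpgamma, Pkd2 and brv2 at 1.94 to 2.69.

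Neuropeptide precursors were among the strong signals, with 28 of 38 measured genes present, 1 mixed and 9 at background, and a list median of 11.72. After Ms came AstC, the allatostatin C precursor, at 14.24, 14.29, 14.41 and 14.35. The insulin-like peptide genes Ilp5 and Ilp2, made by median neurosecretory cells, read 13.95 ± 0.10 and 13.77 ± 0.09, and the diuretic hormone gene Dh31 13.87 ± 0.04. Precursors known from small groups of cells were far above the threshold as well, such as the clock neuron peptide gene Pdf at 12.71, 12.88, 12.59 and 12.68, corazonin (Crz) at 13.31 ± 0.05, NPF at 12.99 ± 0.06 and SIFa at 10.40 ± 0.15.

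Precursors at background included genes with known sites outside the dissected tissue. ETH, made in Inka cells of the trachea, read 2.01, Burs, a hormone of the ventral cord, 2.00 ± 0.01, Ilp7, also a ventral cord peptide, 2.03 ± 0.01, and the male gene SP 2.24 ± 0.02. The others were amn (2.40 ± 0.08), Ptth (2.37 ± 0.07), Nplp4, AstCC and Ilp8, and CNMa was mixed at 5.13, 3.89, 3.55 and 3.88. Akh, the adipokinetic hormone gene of the corpora cardiaca, glands that join the brain from behind, averaged 12.27 ± 0.54 and was found in each control pool. In the other genotypes Akh differed between pools, with background readings on replicates 1 and 3 of CAG100 (2.25 and 2.43) and replicate 3 of CAA/G105 (2.06). The eclosion hormone gene Eh read 9.24, 8.84, 9.64 and 10.04.

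Receptors for peptides had 19 of 25 genes present and a median of 9.50. The receptor gene SPR, which in females answers to the male sex peptide and also to myoinhibitory peptides, read 12.90, 13.05, 13.16 and 13.16. The receptor of short neuropeptide F, sNPF-R, read 11.88 ± 0.09, the insulin receptor gene InR 9.95 ± 0.21 and the PDF receptor gene Pdfr 5.71 ± 0.27. CCHa1-R, CCHa2-R, CCAP-R, Proc-R, PK1-R and tor were at background (2.03 to 2.35), although the precursor genes CCHa1 (9.69 ± 0.19), CCHa2 (11.22 ± 0.05), CCAP (8.84 ± 0.13) and Proc (11.49 ± 0.09) were present.

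**Figure D3:**
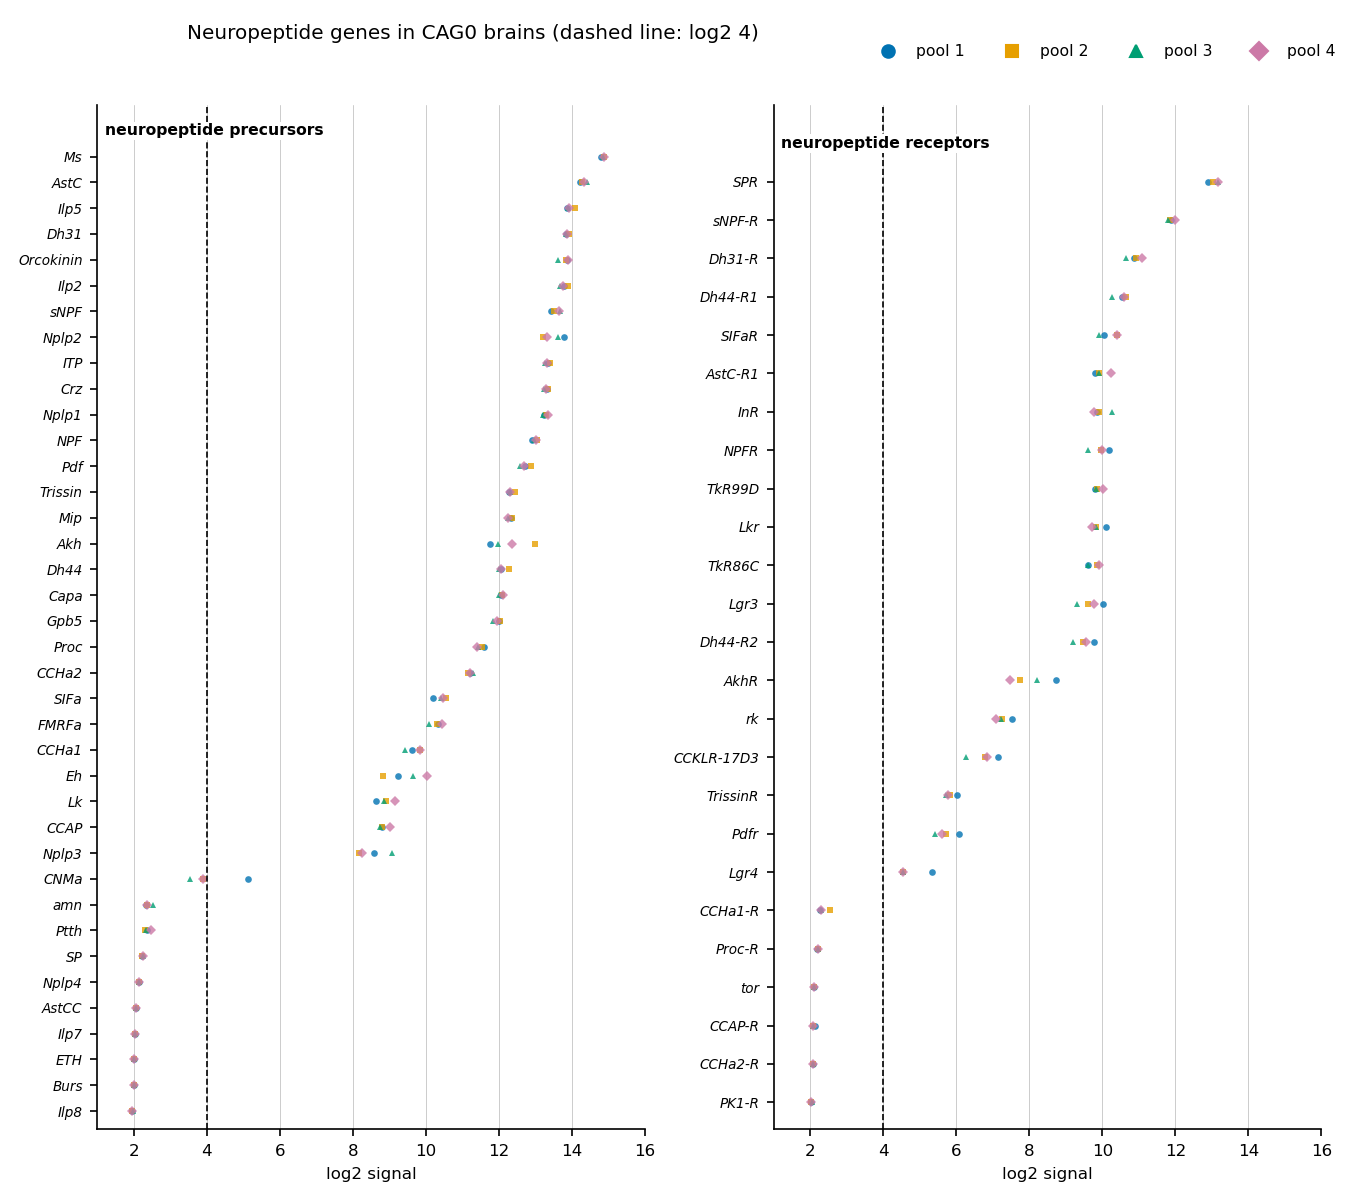
Log2 signal (horizontal axes) of neuropeptide precursor genes (left) and neuropeptide receptor genes (right) in the 4 CAG0 pools, in order of signal, with the dashed line at log2 4. Precursors present range from Nplp3 at 8.52 to Ms at 14.85, receptors present from Lgr4 at 4.73 to SPR at 13.07, and a separate group of each lies near log2 2.

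Genes of several kinds of glia were present. Besides repo and Gs2, the astrocyte gene alrm read 14.43, 14.37, 14.51 and 14.48. The cortex glial gene zyd read 13.02 ± 0.04, the glial gene wrapper 13.26 ± 0.08 and the engulfment receptor gene drpr 13.22 ± 0.04. Barrier genes were present as well, with the transporter gene Mdr65 at 12.35 ± 0.07, the receptor gene moody at 11.62 ± 0.17 and the junction gene Gli at 8.01 ± 0.20. The embryonic glial fate genes gcm (2.27 ± 0.01) and gcm2 (2.06 ± 0.01) were at background.

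Lists of other tissues ranged from all measured genes present to all at background, against 57.1% present among all genes. Muscle lay between, with 8 of 17 genes present, 6 mixed and 3 at background. So did the retrocerebral gland and corpora allata list, with 4 of 8 present. At background were all 9 measured gut and Malpighian tubule genes, 16 of 18 genes of testis and male accessory gland and 15 of 16 of olfactory appendage and taste, with the olfactory co-receptor gene Orco at 1.98, 1.98, 1.99 and 1.99. Present in the testis list was betaTub85D (5.10 ± 0.31), and mia was mixed. Trachea and cuticle had 2 of 10 genes present, Cpr49Ae and Cht2. Cell division genes had 1 of 9 present, CycE (6.54 ± 0.41), with PCNA (2.15 ± 0.08), Mcm2 (2.15 ± 0.02) and fzy (2.36 ± 0.02) at background. Of 4 measured Hox genes, which mark body segments, Scr was present (8.07 ± 0.15), Dfd mixed (4.14 ± 0.19), and Antp and pb were at background.

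Fat body and haemolymph genes were present in 9 of 12 cases, with Fbp1, Fbp2 and Lip3 at background (1.99 to 2.03). The yolk protein genes Yp1, Yp2 and Yp3, products of the female fat body, read 14.69 ± 0.08, 14.12 ± 0.24 and 14.18 ± 0.28, and the lipophorin gene apolpp 14.15 ± 0.14. Haemocyte genes were present in 15 of 16 cases, including Hml at 11.05, 10.52, 10.44 and 10.36, the collagen gene Col4a1 at 13.28 ± 0.15 and the prophenoloxidase gene PPO2 at 11.80 ± 0.42. PPO3 was at background (2.00 ± 0.01).

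Phototransduction genes were present in 11 of 11 measured cases although the eyes had been taken off. The arrestin gene Arr2 read 14.35, 14.06, 14.13 and 13.96, and Arr1 12.72 ± 0.25. The light-gated channel genes trp and trpl read 7.07 ± 0.88 and 7.27 ± 0.80, and inaD, their scaffold, 6.58 ± 0.14. The opsin genes of the list were not read, since no probe set names any of them alone here.

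**Figure D4:**
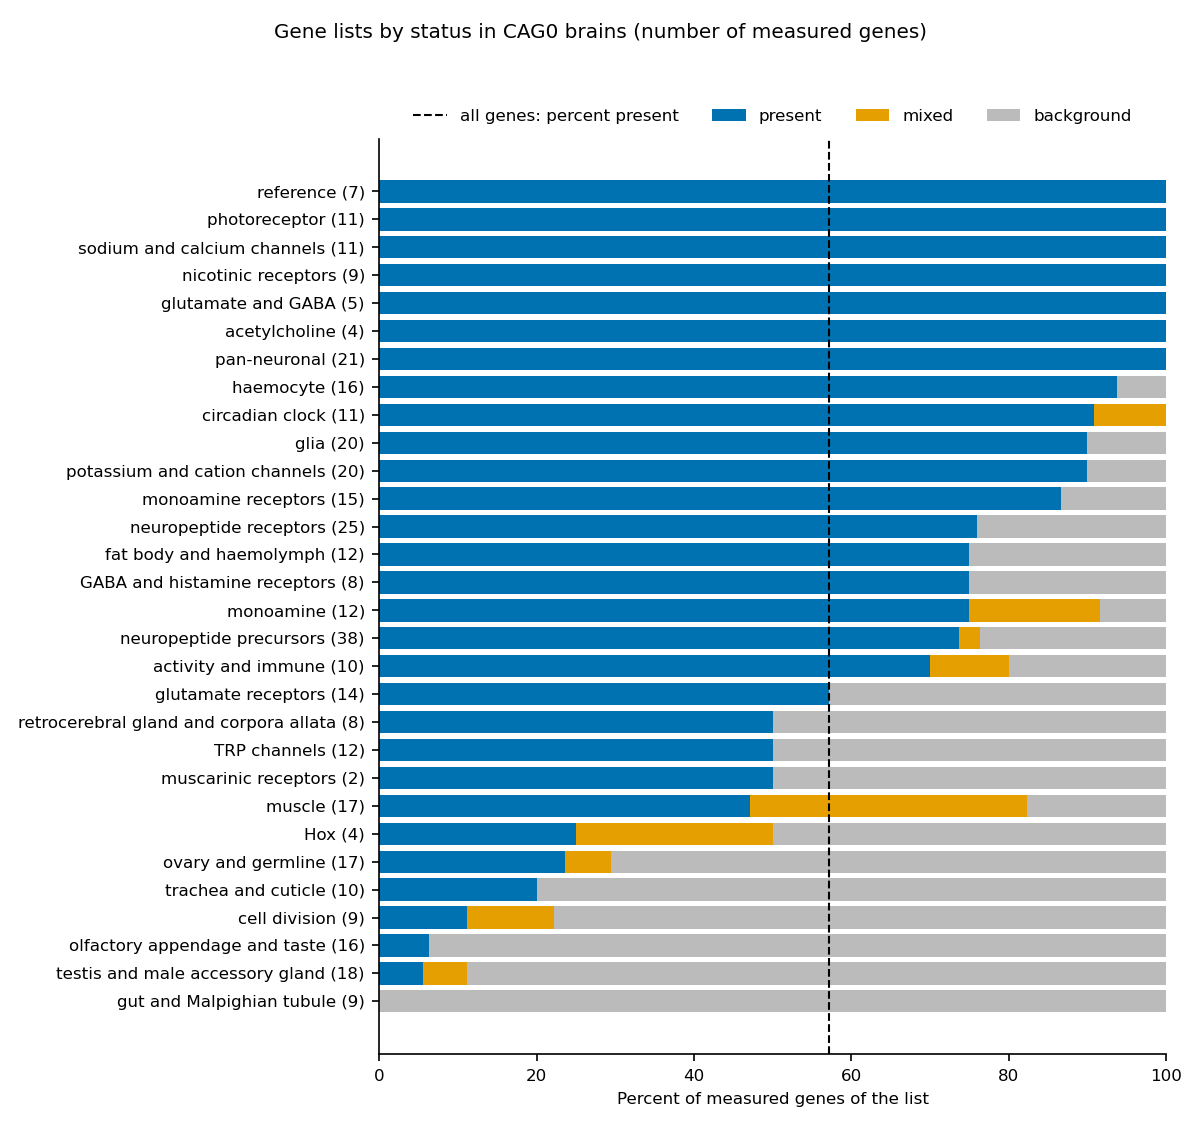
Percent of the measured genes of each list (number in parentheses) that were present, mixed or at background in CAG0 brains, with the dashed line at the 57.1% present among all genes. The 21 pan-neuronal genes were all present, the 9 gut and Malpighian tubule genes were all at background, and muscle has the most mixed genes, 6 of 17.

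Gene families taken by symbol also differed in the share present, and members of the same family could differ in status. All 69 mitochondrial ribosomal protein genes were present (median 11.20), and 33 of 41 cytosolic ones were (median 14.32). The 8 at background, RpS5b, RpS10a, RpS19b, RpS28a, RpS28-like, RpL10Aa, RpL22-like and RpL37-2, carry the names of additional gene copies. The same held for the proteasome, where the 13 genes at background have an R or T after the subunit's name, and for complex I, where ND-51L1, ND-51L2, ND-20L, ND-24L and ND-B14.5AL carry an L for like in the name and ND-B8 does not. Vacuolar ATPase genes had 17 of 31 present. Surface proteins of the wiring families were largely present, with 19 of 20 dpr, 8 of 10 DIP and 13 of 13 beat genes.

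Chemosensory families were largely at background, with 52 of 56 odorant receptor, 54 of 56 gustatory receptor and 49 of 53 Ir family genes there. A few readings stood out against this. Or63a read 10.74, 10.64, 10.22 and 10.50, Or43b 10.25, 10.47, 10.33 and 10.50, and Ir76a 11.20, 11.30, 10.88 and 11.09. Or45a (8.69 ± 0.23), Or13a (6.20 ± 0.62), Ir56a (9.98 ± 0.44) and Gr39a (6.22 ± 0.10) were present too, and each of these genes was read by the probe sets named for it, whose specificity was not tested. Odorant-binding proteins had 8 of 47 present.

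Variation among the 4 control pools was small for most genes. The SD was under 0.2 for 5273 of 6844 present genes (77.0%) and 0.5 or more for 221 (3.23%), and it was 1 or more for 27. Over all present genes, pool 1 differed by over 1 log2 unit from pools 2, 3 and 4 at 118, 124 and 170 genes. Pools 2 to 4 differed from each other at 49 to 81. Of the 100 most variable present genes, pool 1 held the highest value for 64 and pool 4 the lowest for 51. These 100 were picked by their spread over the same pools, and the share over all present genes was not counted. The mean of the haemocyte list was 10.63 on pool 1 against 10.05 to 10.24 on the others, that of the photoreceptor list 10.88 against 10.23 to 10.39, and that of the fat body list 9.96 against 9.18 to 9.62. Muscle genes averaged 6.61, 6.89, 5.89 and 5.33 on pools 1 to 4. The nicotinic and neuropeptide receptor lists were highest on pool 1 too, at 11.63 against 11.31 to 11.52 and 7.56 against 7.34 to 7.45. The retrocerebral gland and corpora allata list was lowest there, at 5.53 against 5.71 to 5.81. So was the pan-neuronal list, at 13.49 against 13.50 to 13.52. Without pool 1, 13 genes had an SD of 1 or more, and 11 of the 20 most variable remained among the 20. Without pool 2 the count was 42. The 3′ minus 5′ gap of GAPDH was lowest on pool 1 (2.54) and highest on pool 4 (2.89), with 2.71 on both others, and the 18S reading was lowest on pool 1. The part of RNA quality and of cells from tissue around the brain in these differences was not tested.

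The most variable present gene was Scp1, a sarcoplasmic calcium-binding protein gene, at 10.55, 9.80, 5.65 and 6.13. Tropomyosin 2 (Tm2) followed the same division into pools 1 and 2 above pools 3 and 4, at 7.30, 6.31, 5.13 and 4.63. The odorant-binding protein gene Obp99a read 11.03, 6.33, 6.60 and 7.26, the larval serum protein gene Lsp2 9.92, 6.16, 6.76 and 5.89, and Obp56d 10.32, 5.85, 8.41 and 8.08, each highest on pool 1. Immune and stress genes among the most variable did not share 1 order. The antimicrobial peptide gene Drs was highest on pool 1, at 12.28, 11.10, 10.87 and 10.59, as were the antiviral gene Vago and the pattern recognition gene GNBP3. Others were highest on pool 3, with the Turandot gene TotC at 11.34 on pool 3 and 7.71 to 9.44 on the others and the peptidoglycan recognition gene PGRP-SB1 at 8.99, 7.78, 9.56 and 6.28. Mtk, a further antimicrobial peptide gene, read 6.17, 8.05, 8.40 and 7.03.

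Of 11 measured clock genes, 4 had an SD over 1. The genes of the negative feedback loop were highest on pool 1 and lowest on pool 3: tim read 12.52, 11.47, 9.94 and 11.16, vri 11.95, 10.54, 9.22 and 10.37, and per 9.44, 8.46, 6.97 and 8.08 on pools 1 to 4. Clk, the activator that this loop represses, was lowest on pool 1, at 3.74 against 6.43, 5.97 and 6.01. The blue-light receptor gene cry, whose protein acts on tim, was also lowest on pool 1, at 10.01, 10.68, 10.38 and 10.64. The other 6 (Pdp1, dco, Pdf, cwo, cyc and jet) had SDs of 0.02 to 0.13.

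The genes tim, vri, per and Clk marked replicate 1 in the other genotypes too. On replicates 1 to 4 tim read 11.77, 9.52, 10.28 and 9.97 in CAG100 and 11.99, 9.85, 10.32 and 10.03 in CAA/G105. Clk read 4.93, 6.10, 5.89 and 6.67 in CAG100 and 4.11, 6.03, 5.61 and 5.90 in CAA/G105. In each of the 3 genotypes tim, vri and per were highest and Clk lowest on replicate 1. For cry this held in part: it read 10.21, 10.68, 10.84 and 10.73 in CAG100 and 10.29, 10.45, 10.26 and 10.26 in CAA/G105. Across all tested probe sets, deviations of same-numbered arrays from their genotype means correlated at r = -0.26 to 0.39 over 12 pairs. The 36 pairs of different number spanned -0.40 to 0.40. Replicate 1 of CAG0 gave 0.39 with that of CAA/G105 and 0.04 with that of CAG100, and replicate 1 of CAG100 and CAA/G105 gave -0.26. The labels give the light cycle and no hour of dissection, and a part of collection time in these values was not tested.

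Genes that crossed the threshold between pools included a group of the egg and early embryo. The gene osk, which builds the germ plasm, read 2.35, 2.35, 5.77 and 8.89, the cyclin gene CycB 2.39, 2.39, 6.06 and 7.37, the RNA-binding protein gene BicC 1.98, 1.98, 6.21 and 6.79, the female germline thioredoxin gene dhd 2.23, 2.23, 4.87 and 6.11, and gnu, a regulator of the first embryonic divisions, 2.10, 2.12, 2.20 and 5.58. Each was at background on pools 1 and 2 and highest on pool 4. For osk the pool 3 reading rests on 1 probe set. A further osk probe set read 2.24, 2.23, 2.38 and 6.84, and another was at background on all 4 pools (mean 2.17). All 8 arrays of CAG100 and CAA/G105 were at background for the 5 genes, with readings of 1.98 to 2.50. In the ovary list 12 of 17 measured genes were at background on all 4 pools, including vas (2.11 ± 0.01) and nanos (2.23 ± 0.04). Another 4 were present on all 4, including bcd (8.08 ± 0.04) and grk (7.42 ± 0.08), and osk alone was mixed. A further bcd probe set was at background (mean 2.25). The list mean, which includes osk, read 3.57, 3.63, 3.82 and 4.17 on pools 1 to 4. It was 3.62 to 3.72 on the 8 arrays of the other genotypes.

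Other genes were read on 1 pool or missed on 1 pool. The troponin gene TpnC41C read 7.86 on pool 2 and 2.20 to 2.22 on the other CAG0 pools, and also passed the line on 1 array of each repeat genotype, at 5.52 in CAG100 and 10.29 in CAA/G105. The gene tobi, a glucosidase of the fat body, read 6.96 on pool 1 and 2.12 to 2.13 on the others. Cyp4g1, a cytochrome P450 gene of hydrocarbon-making oenocytes, read 11.77, 2.34, 10.36 and 9.60 and was missed on pool 2. It passed the line on 1 of 4 CAG100 arrays and 1 of 4 CAA/G105 arrays. In all, 38 of the 171 mixed genes spanned over 2 log2 units.

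**Figure D5:**
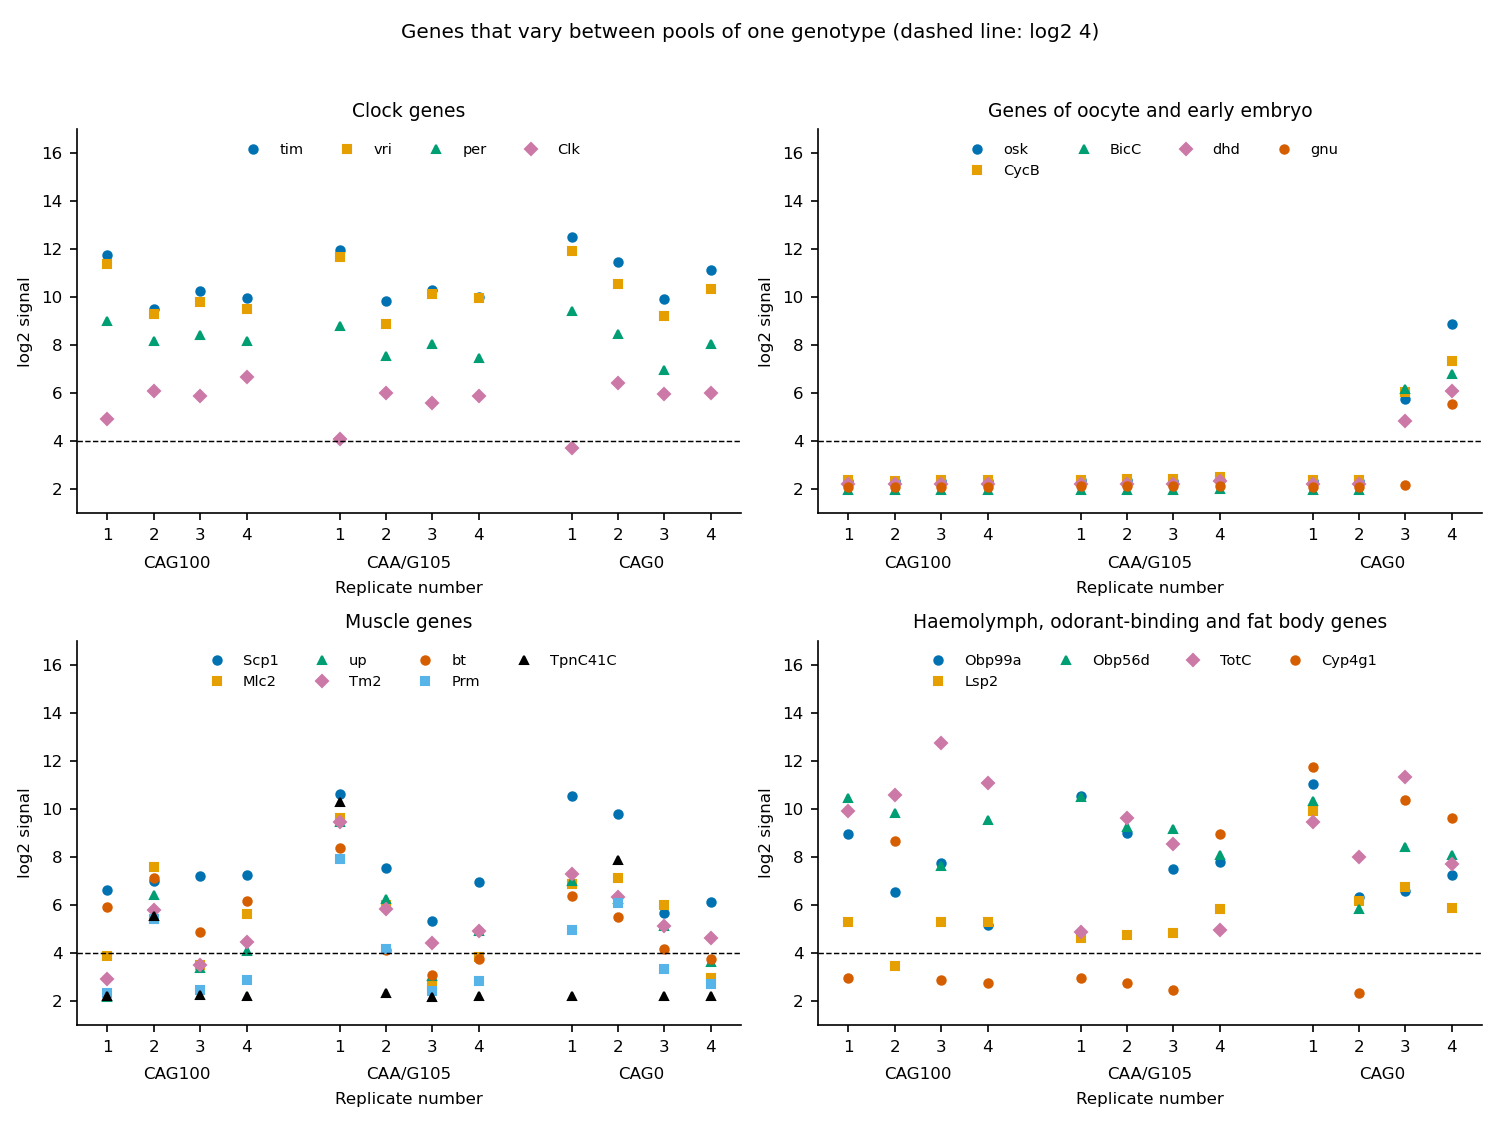
Log2 signal (vertical axes) on each of the 12 arrays, by genotype and replicate number, for clock genes, genes of oocyte and early embryo, muscle genes and haemolymph, odorant-binding and fat body genes, with the dashed line at log2 4. Replicate 1 has the highest tim, vri and per and the lowest Clk in each genotype, and osk, CycB, BicC and dhd pass the line only on CAG0 pools 3 and 4.

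Spread among pools was partly shared with the other genotypes. The median SD over the 6744 genes present on all 12 arrays was 0.10 among CAG100 pools and 0.09 among CAA/G105 pools, against 0.11 among CAG0 pools. Across these genes the SD in CAG0 correlated with that in CAG100 at a Spearman coefficient of 0.48 and with that in CAA/G105 at 0.51, a description in which genes are not independent and level sets part of the spread. Of the 100 genes among these 6744 with the largest SD in CAG0, 32 were also among the 100 of CAG100 and 38 among the 100 of CAA/G105. The overlap was not adjusted for level, and genes of low signal had larger SDs (median 0.24 from 4 to 6, 0.04 at 14 or more). The 24 found in all 3 genotypes include tim, vri, Obp99a, Obp56d, TotC, PGRP-SB1, Mtk, trp and the muscle genes Mlp60A, Mlc1 and Zasp66.

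How far the control readings held in the other genotypes was taken from 1 linear model over the 12 arrays (limma, Benjamini-Hochberg adjustment over 8966 tested probe sets). Of 6844 genes present in CAG0, 6744 (98.5%) were at log2 4 or more on the 8 other arrays too, and of 4967 at background 4838 (97.4%) were under it there. Across all tested probe sets 18.3% differed in CAG100 against CAG0 and 13.2% in CAA/G105 against CAG0, with 10.4% and 7.72% lower and 7.86% and 5.49% higher. Presence and background were shared by nearly all genes, while differences in level were frequent.

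In 7 genes the signal was present in the control alone. The methuselah-like receptor gene mthl8 read 2.12 to 2.14 in CAG100 and 2.13 to 2.15 in CAA/G105, against 10.25 to 11.03 in CAG0 (at least 89.6-fold lower in each, taking the lower side at log2 4). CG43117 averaged 3.37 ± 0.09 on CAG100 arrays and 3.44 ± 0.26 on CAA/G105 arrays, against 7.97 ± 0.55 on CAG0 arrays (at least 15.6-fold lower in each). Reepl1, a member of the receptor-expression-enhancing protein family by name, averaged 2.09 ± 0.01 on CAG100 arrays and 2.10 ± 0.01 on CAA/G105 arrays, against 6.75 ± 0.62 on CAG0 arrays (at least 6.71-fold lower in each). Amnionless, Uros1, Axs and CG31817 lay between 4.59 and 5.52 in CAG0, nearer to the threshold. In the opposite way 4 genes were at background in the control alone: CG1941 averaged 7.54 ± 0.39 on CAG100 arrays and 7.91 ± 0.24 on CAA/G105 arrays, against 2.86 ± 0.02 on CAG0 arrays, and Ugt302K1, GstZ1 and a pseudogene of 18S ribosomal RNA averaged 4.39 to 6.77 in the repeat genotypes and 2.83 to 3.04 in CAG0. These 11 genes were picked by the side of the threshold on which the genotypes lie, so their differences are a description with no test. The kainate-type receptor gene KaiR1D had another pattern: it averaged 3.32 ± 0.03 on CAG100 arrays and 12.06 ± 0.03 on CAA/G105 arrays, against 12.08 ± 0.04 on CAG0 arrays. Flies of the 3 genotypes carry different transgene insertions, and the part of their genetic background in these differences was not tested.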

How the data were processed

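Total RNA of 12 brain pools was amplified with the Ovation Pico WTA system, labelled with biotin and hybridised to 1 Affymetrix array each, per the labels' protocols. The authors deposited log2 signals per probe set, made with GCRMA and Partek per the submitters' processing notes; versions and settings are not given in the sources used here. GCRMA subtracts a background modelled from probe sequence, so unexpressed probe sets collect near log2 2. These values were used unchanged. A gene was taken from the probe set of highest CAG0 mean among those naming 1 gene; 13647 of 18952 probe sets do, 402 name several and 4720 none. Symbols were updated through RefSeq's gene table (13544 matched). The genes named are those of the lists, the 25 of highest signal, the leading variable and mixed genes and those whose status differed between genotypes. Some members of families and of the mixed genes were picked after their values were seen. The members and lists were chosen with earlier results of these data known. Genotypes were compared with limma 3.58.1 in R 4.3.3 (lmFit, eBayes with trend, Benjamini-Hochberg adjustment) over probe sets at log2 4 or more on at least 4 of 12 arrays, tested on simulated data. Nothing says that replicates came from separate crosses, so p-values measure the spread between these samples.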

Additional observations from a re-analysis of the deposited data

Results flagged for a closer look

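Of 162 genes named above that reached log2 4 on at least 1 CAG0 pool, 9 (5.56%) had 1 pool farther from the nearest other than Dixon's 95% value allows for 4 samples. Chance gives about 1 in 20 for genes named without regard to their spread, but several of these were named for it, TpnC41C, tobi and gnu among them, so the shares are not compared. The gap was large in 3 genes that were otherwise at background: TpnC41C read 7.86 on pool 2 with the others at 2.20 to 2.22, tobi 6.96 on pool 1 with the others at 2.12 to 2.13, and gnu 5.58 on pool 4 with the others at 2.10 to 2.20. In present genes it was smaller. Lgr4 read 5.34 on pool 1 with the others at 4.53, mthl8 11.03 on pool 2 with the others at 10.25 to 10.34, and Tbh 10.48 on pool 3 with the others at 10.14 to 10.19. The gaps of drpr (13.28 on pool 1), nrv3 (15.20 on pool 1) and cyc (9.71 on pool 3) were the smallest of the 9.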

How the results depend on the processing

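The number of present genes was 6851 to 6862 when 1 CAG0 pool was left out and 6320 to 7103 with other thresholds, call rules, scalings or probe set choices, against 6844. Of the 383 listed genes with a probe set, 251 were present, and 218 to 262 under those settings. The count of present genes with an SD of 1 or more was less stable, at 13 to 42 when 1 pool was left out and 22 to 24 with other scalings, and 11 to 17 of the 20 most variable genes stayed among the 20. List counts moved by over 1.5 times for the testis, Hox and cell division lists, by 1 gene each, and for monoamine receptors with the probe set of lowest mean. Counts of differing probe sets were 1119 to 1949 for CAG100 against CAG0 (1639 in the report's model) and 874 to 1529 for CAA/G105 against CAG0 (1184) when 1 array was left out. After a shift that gave all arrays 1 median, CAG100 against CAG0 gave 571 higher and 1009 lower probe sets, against 705 and 934, and quantile normalization gave 780 higher and 843 lower. The replicate block gave 1466 and 1090. Correlations of same-numbered arrays lay within the range of the other pairs, and the report's model did not take the numbers as pairs. A range over 12 pairs set against one over 36 cannot show that the numbers carry no pairing. The clock genes tim, vri and per were highest and Clk lowest on replicate 1 of each genotype. Signals near log2 2 give no order.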
